A study of Homo sapiens with 13 samples.

Results

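The genes described here are 10 regulators and readouts of epithelial-to-mesenchymal transition (EMT): the transcription factors SNAI1, SNAI2, TWIST1, ZEB1 and ZEB2, their epithelial antagonists GRHL2, OVOL1, OVOL2 and ESRP2, and the intermediate filament gene VIM. They were listed by symbol, and each was taken from the array row annotated with that symbol alone. All 10 had such a row among the 18377 genes tested. ZEB2 had several rows, and the row with the highest mean over the 13 arrays was used. RNA was measured on 13 Affymetrix whole-transcript arrays, 1 per culture flask, in HepG2, an established human liver cancer cell line, and in HepG2S1, a line that according to the series title arose from HepG2 under prolonged sorafenib, a kinase inhibitor used against liver cancer. Expression values cannot show whether HepG2S1 descends from HepG2, so that "rose" and "fell" against HepG2 name differences between the lines as labelled, not a change followed in 1 line. The untreated group held 3 flasks of HepG2 without sorafenib at 20% O2. 4 flasks held HepG2S1 with 6 µM sorafenib at 20% O2, 3 held HepG2S1 withdrawn from sorafenib at 20% O2, and 3 held HepG2S1 with 6 µM sorafenib at 2% O2, with 72 h given as the time in each group. All groups shared the same growth medium, and the labels name 1 derived line without saying whether it is a clone. HepG2 without sorafenib at 2% O2 and HepG2 with sorafenib are not analysed here, so that line and drug differ together between HepG2 and HepG2S1 with sorafenib. The labels describe separate flasks and do not say if each came from its own culture. The p-values therefore measure only how far flasks differed, which may be technical.

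In EMT, epithelial cells lose cell-cell junctions and apical-basal polarity and take on a migratory, mesenchymal form. SNAI and ZEB proteins are zinc-finger repressors that bind E-box sequences in epithelial genes such as CDH1, and TWIST1 is a basic helix-loop-helix factor of the same program. GRHL2 and the OVOL proteins are transcription factors that maintain the epithelial state and oppose ZEB1, ESRP2 is a splicing factor of epithelial cells, and microRNAs of the miR-200 family repress ZEB1 and ZEB2 while the ZEB proteins repress the miR-200 genes.

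Values are on the log2 scale of RMA, an array method that corrects background, normalizes between arrays and summarises probes. Array medians ran from 7.30 to 7.42 and the lower quartile of all rows had a median of 5.76 over the arrays. The deposited table holds no detection calls, and a level here is compared between groups only for the same gene. RMA pulls low values together, so that a difference from a value near the lower quartile may be too small, and no fold is given for it. Over all rows, Pearson's r was 0.995 to 0.998 within groups and 0.913 to 0.923 between HepG2 and HepG2S1 arrays. The labelled liver identity showed in the markers of HepG2 and far less in those of HepG2S1. All 14 measured hepatocyte markers, ALB and AFP among them, were lower in HepG2S1 with sorafenib (median log2 difference -7.24), and their mean per array lay at 12.8 to 12.9 in HepG2 and at 5.80 to 5.97 in HepG2S1. Of the 14, 6 lay below the lower quartile in each HepG2S1 group, while APOA1, at 7.67 to 7.76 in the 3 HepG2S1 group means, stayed above the array medians. Of 11 fibroblast and stellate cell markers 4 rose and none fell, DCN by 5.43, LUM by 5.01, FAP by 3.75 and RGS5 by 1.07 on the log2 scale. The other 7, COL1A1, COL1A2, COL3A1, PDGFRA, PDGFRB, POSTN and THY1, did not pass, and the list's mean per array was 6.15 to 6.29 in HepG2 and 7.56 to 7.69 in HepG2S1. Of 6 squamous and keratinocyte markers 4 rose in the same comparison, led by SERPINB5 with 6.80. Of 6 endothelial markers none rose and 4 fell, and of 6 leukocyte markers CD68 rose by 0.79 and 3 fell, with PTPRC between 4.33 and 4.41 in all 4 group means. The part of these marker genes in the results below was not tested. In bulk samples, fewer cells of a type and less RNA per cell cannot be told apart.

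HepG2S1 cells with sorafenib expressed far more VIM and SNAI2 than untreated HepG2 cells, and more TWIST1, ZEB2 and ZEB1. ESRP2 was lower. GRHL2, OVOL1 and OVOL2 did not pass the test, and SNAI1 passed with a small difference between overlapping groups. In limma, at an adjusted p under 0.05, 6 of the 10 genes were higher and 1 was lower. For comparison, 57.3% of all genes tested passed between these groups, 30.1% as higher and 27.2% as lower. The median log2 difference was 0.65 over the 10 genes and 0.01 over all genes.

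VIM encodes vimentin, the intermediate filament protein that marks mesenchymal cells. Its log2 values were 6.05, 6.24 and 6.26 in the HepG2 arrays, and 12.63, 12.61, 12.59 and 12.61 in the arrays of HepG2S1 with sorafenib at 20% O2. In HepG2S1 they were 12.60, 12.60 and 12.59 after withdrawal and 12.66, 12.70 and 12.63 at 2% O2. Every HepG2S1 array lay far above every HepG2 array, and the 10 HepG2S1 arrays spanned only 12.59 to 12.70. The log2 difference of HepG2S1 with sorafenib from HepG2 was 6.43 ± 0.05 (SE; limma, adjusted p = 9.80e-20). The HepG2 values lay near the lower quartile of 5.76, which limits what the size of this difference shows.

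SNAI2, also called Slug, is a repressor of CDH1 and other junction genes. Its log2 values were 7.65, 8.10 and 8.10 in HepG2 and 12.75, 12.77, 12.77 and 12.74 in HepG2S1 with sorafenib. They were 12.83, 12.86 and 12.86 after withdrawal and 12.87, 12.86 and 12.94 at 2% O2. The first HepG2 array was the lowest, and no HepG2S1 array overlapped the HepG2 arrays. The log2 difference with sorafenib was 4.80 ± 0.09 (SE; limma, adjusted p = 2.68e-16), a 27.9-fold difference. SNAI1, or Snail, a paralog with the same kind of targets, had log2 values of 7.46, 7.66 and 7.56 in HepG2 and 7.69, 7.92, 7.60 and 7.86 in HepG2S1 with sorafenib. The third of these HepG2S1 values lay within the HepG2 range, and the log2 difference was 0.21 ± 0.08 (limma, adjusted p = 0.0281). The SNAI1 call was lost in limma without HepG2 array 1 (adjusted p = 0.134) or 3 (0.0588) and without sorafenib array 7 (0.0852) or 10 (0.0814). It was also lost with the 2 groups fitted alone (0.0715), with 75th percentile scaling (0.0714) and with array weights (0.125).

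TWIST1 values in HepG2 were 7.82, 7.81 and 7.80 on the log2 scale. In HepG2S1 with sorafenib they were 9.75, 9.88, 9.71 and 9.75. The groups did not overlap, and the log2 difference was 1.97 ± 0.05 (SE; limma, adjusted p = 2.16e-14), a 3.91-fold difference. ZEB1 had log2 values of 9.15, 8.88 and 8.87 in HepG2 and 10.15, 9.91, 10.06 and 10.08 in HepG2S1 with sorafenib. Again no arrays overlapped, and ZEB1 differed by 1.09 ± 0.08 (limma, adjusted p = 4.87e-09), or 2.12-fold.

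ZEB2 is the paralog of ZEB1. Its row gave 6.09, 6.08 and 5.92 in HepG2 and 7.69, 7.69, 7.69 and 7.67 in HepG2S1 with sorafenib. The arrays did not overlap, and the log2 difference was 1.66 ± 0.06 (limma, adjusted p = 5.78e-13), with the HepG2 values near the lower quartile. The other row annotated with ZEB2, looked at after its values were seen, ran lower throughout. Its means were 4.08 ± 0.13 (SD, n = 3) in HepG2, 4.36 ± 0.13 (n = 4) with sorafenib, 4.77 ± 0.37 (n = 3) after withdrawal and 4.39 ± 0.19 (n = 3) at 2% O2. These lie below the lower quartile of the arrays, and the mean over both rows differed by 0.96 between HepG2S1 with sorafenib and HepG2 (limma, adjusted p = 5.56e-08), so that the direction was the same and the size smaller.

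**Figure D1:**
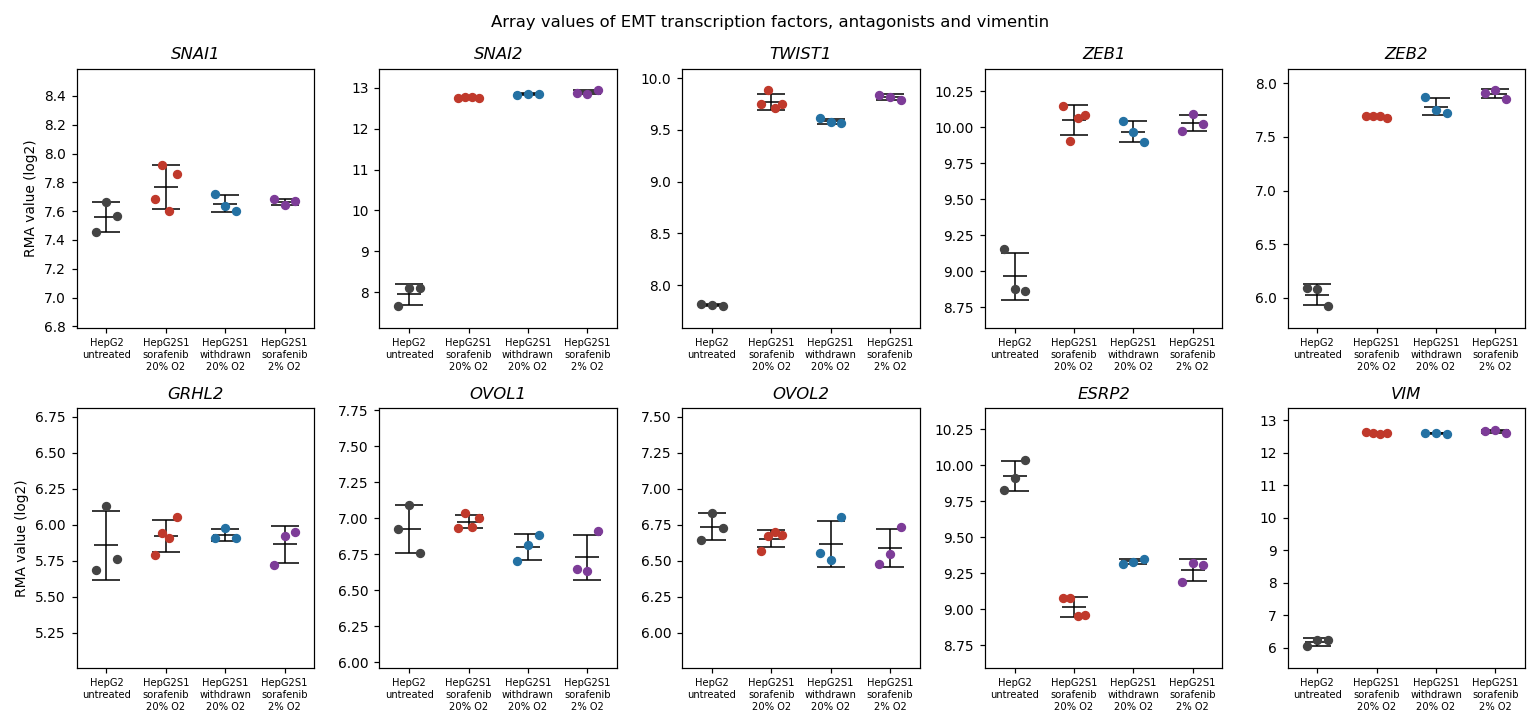
RMA values (log2, vertical axis, a scale of its own for each gene) of the 10 genes in the 4 groups. Points are arrays, and the horizontal mark with its bar is the group mean ± SD (n = 3, or n = 4 for HepG2S1 with sorafenib at 20% O2). VIM sits at 6.05 to 6.26 in HepG2 and at 12.59 to 12.70 in HepG2S1, while the groups of GRHL2 overlap at 5.68 to 6.13.

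Of the antagonists, only ESRP2 differed between HepG2S1 with sorafenib and HepG2 at the test's threshold. ESRP2 values were 9.83, 9.91 and 10.04 in HepG2 and 9.08, 9.08, 8.95 and 8.96 in HepG2S1 with sorafenib on the log2 scale. All 4 HepG2S1 arrays lay below all 3 HepG2 arrays. The difference was -0.91 ± 0.06 (SE; limma, adjusted p = 2.46e-09), or 1.88-fold lower.

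GRHL2 log2 values ran from 5.68 to 6.13 over all 13 arrays, close to the lower quartile of the arrays. Its difference between HepG2S1 with sorafenib and HepG2 was 0.06 (95% confidence interval -0.14 to 0.27; limma, adjusted p = 0.613), and it passed only without HepG2 array 2, with a difference of 0.20 (adjusted p = 0.0460). OVOL1 ran from 6.76 to 7.09 in HepG2 and from 6.93 to 7.03 with sorafenib, a difference of 0.05 (interval -0.13 to 0.23; adjusted p = 0.637). OVOL2 ran from 6.65 to 6.84 and from 6.57 to 6.70, a difference of -0.08 (interval -0.25 to 0.09; adjusted p = 0.411). The groups of these 3 genes overlapped, and the intervals reach 0.27 in one direction and -0.25 in the other, so that small differences could not be seen.

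Against HepG2, the other HepG2S1 groups gave 5 of the 10 genes higher and 1 lower each, and SNAI1 did not pass in either. These comparisons share the 3 HepG2 arrays with the first. After withdrawal, where 56.6% of all genes passed, VIM differed from HepG2 by 6.41, SNAI2 by 4.90, TWIST1 by 1.78, ZEB2 by 1.75, ZEB1 by 1.00 and ESRP2 by -0.59. At 2% O2 with sorafenib, where 61.2% of all genes passed, the differences were 6.48 for VIM, 4.94 for SNAI2, 2.01 for TWIST1, 1.88 for ZEB2, 1.06 for ZEB1 and -0.65 for ESRP2. SNAI1 was at 0.09 (95% interval -0.08 to 0.26) and 0.10 (interval -0.07 to 0.28). OVOL1 was at -0.13 after withdrawal and at -0.19 at 2% O2 (interval -0.38 to -0.004; limma, adjusted p = 0.0716). The OVOL1 difference at 2% O2 passed in 4 of 20 other settings, with 0.0115 as the lowest adjusted p in limma. OVOL2 was at -0.12 and -0.15, and passed in 1 and 2 of 20 other settings. GRHL2 was at 0.07 and 0.01. The high VIM and SNAI2 and the low ESRP2 were thus measured in HepG2S1 with and without the drug in the medium.

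Withdrawal of sorafenib from HepG2S1 raised ESRP2 and lowered TWIST1, and no other gene of the 10 passed. Of all genes tested, 18.0% passed between withdrawn and drug-exposed HepG2S1 cells, 10.1% as higher and 7.90% as lower, and the 2 of 10 seen here is close to that share. The median log2 difference of the 10 genes was -0.02, as was that of all genes. ESRP2 log2 values after withdrawal were 9.31, 9.33 and 9.35, above all 4 sorafenib arrays and below all 3 HepG2 arrays. The difference was 0.31 ± 0.06 (SE; limma, adjusted p = 0.00213), or 1.24-fold. TWIST1 values were 9.61, 9.57 and 9.56, below all 4 sorafenib arrays. The difference was -0.19 ± 0.05 (limma, adjusted p = 0.0164), or 1.14-fold, and it did not pass in limma without withdrawn array 14 (adjusted p = 0.0668) or 15 (0.0627).

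For VIM the difference after withdrawal was -0.01, with a 95% confidence interval of -0.13 to 0.10, narrow beside its difference of 6.43 from HepG2. SNAI2 was at 0.09 (interval -0.09 to 0.28), with all 3 withdrawn arrays above the 4 sorafenib arrays (limma, adjusted p = 0.544). With the 2 groups fitted alone, the unadjusted p of SNAI2 in limma was under 0.05, but it did not pass. ZEB1 was at -0.08 (interval -0.25 to 0.08) and SNAI1 at -0.12 (interval -0.28 to 0.04). ZEB2 was at 0.10 (interval -0.02 to 0.22), and its mean over both rows at 0.26 passed in limma (adjusted p = 0.0466). OVOL1 was at -0.18 (interval -0.36 to 0.00), with all 3 withdrawn arrays below the 4 sorafenib arrays (limma, adjusted p = 0.175). It passed with the 2 groups fitted alone (0.0494) and with array weights (0.0487). OVOL2 and GRHL2 were at -0.03 and 0.01.

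At 2% O2, HepG2S1 cells with sorafenib had more ESRP2 and more ZEB2 than at 20% O2 with the same drug. The comparison shares its 4 arrays of HepG2S1 with sorafenib at 20% O2 with the withdrawal comparison. In all, 15.2% of genes passed, 8.99% as higher and 6.17% as lower, beside 2 of the 10 genes here, both higher. The medians were 0.01 for the 10 genes and -0.03 for all genes. ESRP2 values at 2% O2 were 9.19, 9.32 and 9.31, above all 4 arrays at 20% O2, and the log2 difference was 0.26 ± 0.06 (SE; limma, adjusted p = 0.0113). ZEB2 values were 7.91, 7.94 and 7.86, again above all 4, and the difference was 0.22 ± 0.06 (limma, adjusted p = 0.0178). The ESRP2 call was lost in limma without 2% O2 array 17 (adjusted p = 0.0586), and the ZEB2 call without array 16 (0.0636) or 17 (0.0766), with 75th percentile scaling (0.0508) and with the mean over both ZEB2 rows (0.319).

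VIM differed by 0.05 (95% interval -0.06 to 0.17) between 2% and 20% O2, and SNAI2 by 0.13 (interval -0.05 to 0.32). Every SNAI2 array at 2% O2 lay above every sorafenib array at 20% O2. SNAI2 passed in no setting, with 0.0569 as its lowest adjusted p in limma over the other settings. TWIST1 was at 0.04 (interval -0.06 to 0.15), ZEB1 at -0.02 (interval -0.19 to 0.14) and SNAI1 at -0.10 (interval -0.26 to 0.06). OVOL1 values were 6.65, 6.63 and 6.91 at 2% O2 and 6.93, 7.03, 6.94 and 7.00 at 20% O2, with no overlap. Its difference of -0.25 ± 0.08 missed the threshold (limma, adjusted p = 0.0594) and passed in 6 of 20 other settings, with 0.0125 under array weights as the lowest adjusted p and 0.225 as the highest over all 20. OVOL2 and GRHL2 were both at -0.06, with intervals of -0.24 to 0.11 and -0.26 to 0.15.

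**Figure D2:**
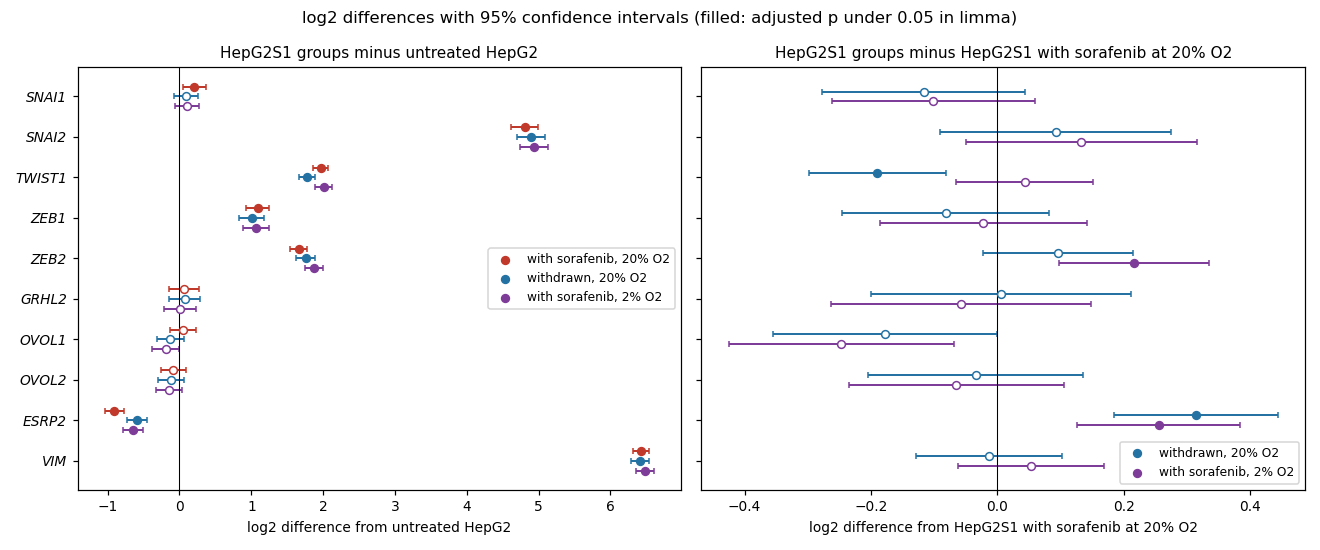
log2 differences (horizontal axis) of the 10 genes with 95% confidence intervals, from limma. Left, each HepG2S1 group minus untreated HepG2, where VIM lies between 6.41 and 6.48. Right, HepG2S1 withdrawn or at 2% O2 minus HepG2S1 with sorafenib at 20% O2, on a narrower axis, where ESRP2 lies at 0.31 and 0.26. Filled points passed at an adjusted p under 0.05 and open points did not.

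Among the 3 HepG2S1 groups alone, TWIST1, ZEB2 and ESRP2 varied by limma's F test, with adjusted p = 0.00854, 0.0259 and 0.00221. Of all genes, 27.4% passed that test, beside 3 of 10 here. Between 2% O2 and withdrawal, where 18.6% of genes passed, TWIST1 was the 1 gene of the 10 that did, 0.23 higher at 2% O2 (adjusted p = 0.00689). ESRP2 was ordered from sorafenib at 20% O2 through 2% O2 and withdrawal to HepG2, and its neighbours at 2% O2 and after withdrawal differed by 0.06 without passing (adjusted p = 0.594). TWIST1 was ordered from HepG2 through withdrawal to sorafenib at 20% O2 and then 2% O2, and the last step of 0.04 did not pass. ZEB2 was ordered from HepG2 through sorafenib at 20% O2 and withdrawal to 2% O2, and of these steps only the first, from HepG2, passed. For VIM and SNAI2 the step from HepG2 to the lowest HepG2S1 group passed and no step among the HepG2S1 groups did, and for ZEB1 the same held. No step between neighbouring groups passed for SNAI1, GRHL2, OVOL1 or OVOL2.

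The counts of the gene lists that follow stand beside the shares of all genes given above, 57.3% against HepG2 (30.1% higher and 27.2% lower), 18.0% after withdrawal and 15.2% at 2% O2. Genes known as targets of the ZEB and SNAI repressors or of GRHL2 were mostly lower in HepG2S1 with sorafenib than in HepG2. Of 24 measured, 17 fell, 4 rose and the other 3 missed the threshold, and the median log2 difference was -0.41 beside 0.01 for all genes. EPCAM, an epithelial adhesion molecule, fell by 5.19. CDH1, E-cadherin, fell by 4.53, from a mean of 10.46 ± 0.19 (SD, n = 3) in HepG2 to 5.99 in HepG2S1 after withdrawal, 5.83 at 2% O2 and 5.93 with sorafenib at 20% O2. CLDN7, a tight junction claudin, rose by 4.0, and so did TMEM54 by 1.15, PKP2, a desmosomal protein, by 0.55 and JUP, plakoglobin, by 0.45. After withdrawal 2 of the 24 rose, PKP2 by 0.49 and PKP3 by 0.24, and 5 fell, PATJ (-0.40), CLDN7 (-0.33), TMEM54 (-0.30), CLDN1 (-0.25) and CDS1 (-0.24). At 2% O2 5 rose, led by the protease PRSS8 with 1.20 and followed by CLDN7 with 0.52, PKP2 with 0.48, PKP3 with 0.38 and PATJ with 0.31, and CLDN1 (-0.36) and LLGL2 (-0.30) fell. CDH1 was at 0.07 (95% interval -0.10 to 0.23) after withdrawal and at -0.10 (interval -0.27 to 0.07) at 2% O2. Its values in every HepG2S1 group lay near the lower quartile of the arrays. That limits what the size of these differences and of its fall against HepG2 shows.

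Of 25 mesenchymal genes used as EMT markers, 9 rose, 5 fell and 11 missed the threshold in HepG2S1 with sorafenib, and the median was -0.01. That share is near the 57.3% of all genes that passed, as are the counts within HepG2S1 below to 18.0% after withdrawal and 15.2% at 2% O2. LOX, a collagen cross-linking enzyme, rose by 4.12 and CDH2, N-cadherin, by 0.76, while the matrix protein SPARC (-4.97), fibronectin FN1 (-3.86), smooth muscle actin ACTA2 (-2.0), TAGLN (-0.70) and COL6A1 (-0.23) fell. Also higher were AXL by 2.34, WNT5A by 2.13 and COL5A1 by 1.45, as well as S100A4, FBN1, LOXL2 and ITGA5. The ITGA5 mean was 7.27 in HepG2 and 11.05 in HepG2S1 with sorafenib at 20% O2. Withdrawal raised LOX by 0.50, WNT5A by 0.37, ITGA5 by 0.31, FBN1 by 0.28 and FN1 by 0.28, and ACTA2 fell by 0.35. At 2% O2 LOXL2 rose by 1.61, LOX by 1.46, ITGA5 by 0.92 and COL5A1 by 0.46, and none of the 25 passed as lower in limma (4 were lower at an unadjusted p under 0.05). COL1A1, COL1A2, COL3A1, PDGFRB, POSTN and THY1 belong to the fibroblast list as well and passed in none of these comparisons. Without withdrawn array 13, 3 of the 25 passed after withdrawal in place of 6.

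Intermediate filament genes other than VIM went both ways between HepG2 and HepG2S1 with sorafenib, 8 of 22 up and 7 down, with a median of 0.09, beside 30.1% of all genes up and 27.2% down. KRT7, a simple-epithelial keratin, rose by 5.90, and KRT23 fell by 5.81. After withdrawal 5 rose, KRT5 by 0.79, LMNB1 by 0.45, KRT19 by 0.40, KRT8 by 0.23 and LMNB2 by 0.21, and KRT80 (-0.33) and PRPH (-0.31) fell. At 2% O2 none rose in limma (1 at an unadjusted p under 0.05), and GFAP (-0.29), KRT18 (-0.26) and PRPH (-0.20) fell. The count of 3 became 1 without 2% O2 array 17 or without sorafenib array 9.

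**Figure D3:**
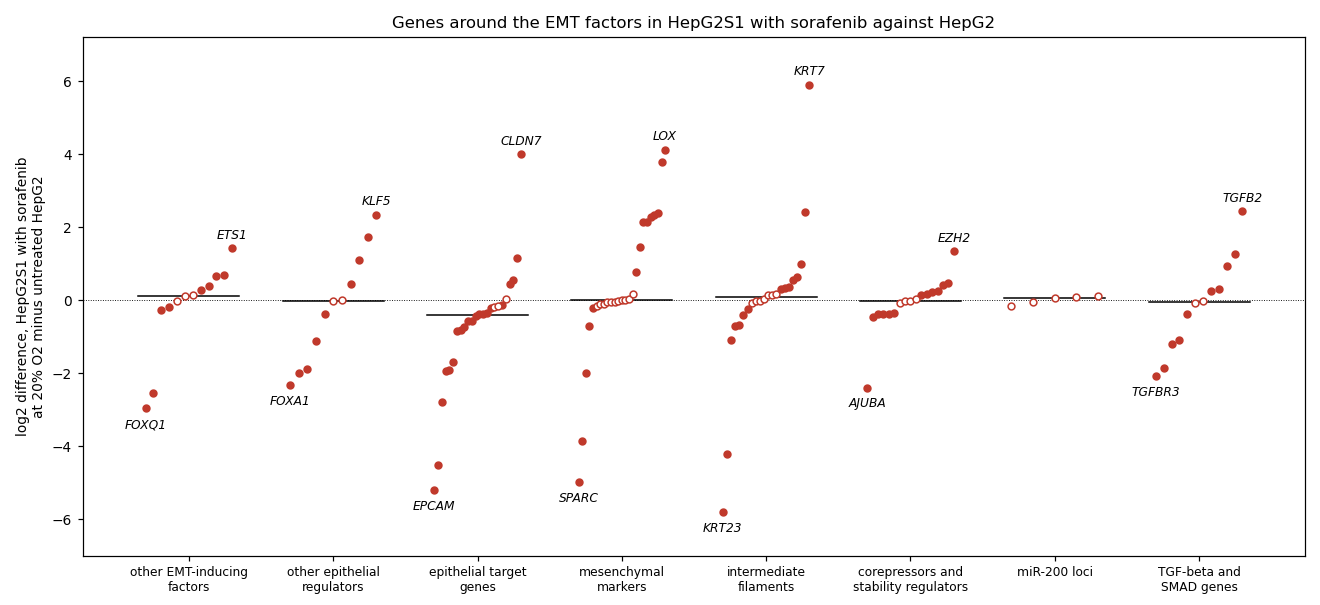
log2 differences (vertical axis) of HepG2S1 with sorafenib at 20% O2 minus untreated HepG2 for the genes of 8 lists, 1 point per gene, with the list's median as a line. Filled points passed in limma at an adjusted p under 0.05. The epithelial target genes have their median at -0.41, the mesenchymal markers at -0.01, and the 5 miR-200 loci all lie near 0.

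Other EMT-inducing transcription factors were split as well. Of 12 measured, 5 rose with sorafenib against HepG2, ETS1 by 1.42, RUNX2 by 0.68, PRRX1 by 0.67, TCF4 by 0.39 and TCF3 by 0.28, and 4 fell, FOXQ1 (-2.96), SOX9 (-2.53), SOX4 (-0.27) and SNAI3 (-0.18). PRRX1 fell by 0.25 after withdrawal, where none rose (0 also at an unadjusted p under 0.05 in limma). At 2% O2 PRRX1 fell by 0.26 and ETS1 rose by 0.51. Of 11 other epithelial regulators 4 rose against HepG2, KLF5 by 2.34, KLF4 by 1.74, EHF by 1.10 and ELF3 by 0.45, and 5 fell, FOXA1 (-2.32), FOXA2 (-2.0), GRHL1 (-1.89), FOXA3 (-1.13) and ELF5 (-0.38). FOXA1, FOXA2 and FOXA3 are liver transcription factors, and the hepatocyte markers fell with them, as given above. EHF rose by 0.49 and KLF5 by 0.38 after withdrawal, with none lower in limma (2 at an unadjusted p under 0.05), and at 2% O2 ELF3 rose by 0.86, KLF4 by 0.32 and KLF5 by 0.19 while ELF5 (-0.38) and FOXA1 (-0.16) fell. At 2% O2 the count of EMT-inducing factors passing went from 2 to 1 without 2% O2 array 16. That of epithelial regulators went from 5 to 2 without 2% O2 array 16 or sorafenib array 10, and to 3 without 2% O2 array 17.

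Corepressors of SNAI and ZEB and regulators of their stability went in both directions against HepG2. Of 17 measured, 7 rose and 6 fell, with EZH2, a histone methyltransferase, at 1.35 and AJUBA, a LIM protein that binds SNAI factors, at -2.40. AJUBA rose by 0.70 after withdrawal and by 0.47 at 2% O2, after withdrawal HDAC1 (0.35), KDM1A (0.34), LIMD1 (0.23) and HDAC2 (0.20) rose too, and RCOR1 rose by 0.20 at 2% O2. None of the 17 fell in either comparison in limma, nor did any at an unadjusted p under 0.05. The 2 that passed at 2% O2 became 1 without any of sorafenib arrays 7, 9 and 10, withdrawn arrays 13, 14 and 15 or 2% O2 arrays 16 and 17, each left out alone. Of 12 TGF-beta ligands, receptors and SMAD genes, which lie upstream of these factors, 5 rose and 5 fell against HepG2, with TGFB2 at 2.44 and TGFBR3, a co-receptor, at -2.08. After withdrawal SMAD7, an inhibitory SMAD, rose by 0.48 and TGFBR2 by 0.20, and none fell in limma (2 at an unadjusted p under 0.05). At 2% O2 TGFB2 rose by 0.79, TGFB1 by 0.45, TGFBR1 by 0.38, SMAD3 by 0.31 and SMAD7 by 0.31, while TGFBR3 (-0.27) and SMAD2 (-0.19) fell. All SMAD7 arrays at 2% O2 held the same value, 8.49, and the cause was not tested. The 2 that passed after withdrawal became 4 without HepG2 array 1 or 3 or 2% O2 array 17 or 18.

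The miR-200 genes are shown because their products target ZEB1 and ZEB2. Mature sequences are those of RefSeq on GRCh38.p14, 5′ to 3′, with the seed, bases 2 to 8, in capitals. They fall into 2 seed groups that differ by 1 base, AAUACUG in miR-200b, miR-200c and miR-429 and AACACUG in miR-200a and miR-141.
hsa-miR-200b-3p: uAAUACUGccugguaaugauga
hsa-miR-200c-3p: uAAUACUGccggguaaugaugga
hsa-miR-429: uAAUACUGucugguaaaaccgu
hsa-miR-200a-3p: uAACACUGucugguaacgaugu
hsa-miR-141-3p: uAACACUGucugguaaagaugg
The 5 rows for these loci read the precursor loci in total RNA, not the mature microRNAs. None passed between HepG2S1 with sorafenib and HepG2, after withdrawal or at 2% O2 against sorafenib at 20% O2 (limma, and 0 at an unadjusted p under 0.05 in each), and 1 passed against HepG2 without HepG2 array 3. Against HepG2, MIR200B fell, with -0.23 after withdrawal (adjusted p = 0.0334) and -0.25 at 2% O2 (adjusted p = 0.0193). It was at -0.16 with sorafenib at 20% O2 without passing (95% interval -0.33 to 0.01). The mean per array over the 5 loci ran from 5.92 to 6.24 in all groups, near the lower quartile of the arrays. MIR200B and MIR429 lay above that quartile, with group means of 7.04 to 7.29 and 7.21 to 7.40, and MIR200A and MIR141 lay below it. MIR200C lay about at the quartile with sorafenib at 20% O2 (5.76) and below it in the other groups, with 5.52 at 2% O2 as the lowest mean.

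Promoter windows, 250 bases before to 50 after a RefSeq start on GRCh38.p14, were searched for the E-box CACCTG on either strand, the core bound by SNAI and ZEB proteins. It occurred in 20.6% of the 35116 windows of the table, at least 3 times in 0.635% and at least 5 times in 0.0940%. Windows were listed for 15 of the 24 epithelial target genes, of which 11 held the motif in at least 1 window, for 16 of the 25 mesenchymal genes, of which 4 did, and for 3 of the 10 genes described here, of which 1, ZEB1, did. Over all genes with a window, 6571 of 27305 held it. The epithelial genes were listed as known targets of ZEB and SNAI repressors or of GRHL2, so that their count cannot test that link. Shown here are VIM, the gene with the largest difference, ZEB1 at the start with the most matches, and the 2 windows of the epithelial list with the most matches, chosen after the search, each on the strand of its gene and with the motif in capitals.
VIM chr10:17227991-17228290 plus strand: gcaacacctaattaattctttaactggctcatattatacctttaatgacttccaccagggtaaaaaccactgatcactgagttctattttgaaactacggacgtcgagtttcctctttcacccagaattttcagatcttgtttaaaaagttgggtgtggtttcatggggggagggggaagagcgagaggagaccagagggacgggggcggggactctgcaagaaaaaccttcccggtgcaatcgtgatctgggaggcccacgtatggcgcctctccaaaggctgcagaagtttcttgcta
ZEB1 chr10:31318966-31319265 plus strand: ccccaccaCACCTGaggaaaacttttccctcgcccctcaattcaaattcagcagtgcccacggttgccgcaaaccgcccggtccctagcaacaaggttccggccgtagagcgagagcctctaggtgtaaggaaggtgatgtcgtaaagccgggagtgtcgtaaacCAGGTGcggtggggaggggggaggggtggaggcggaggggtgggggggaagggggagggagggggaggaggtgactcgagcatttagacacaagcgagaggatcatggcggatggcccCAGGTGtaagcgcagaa
CRB3 chr19:6464021-6464320 plus strand: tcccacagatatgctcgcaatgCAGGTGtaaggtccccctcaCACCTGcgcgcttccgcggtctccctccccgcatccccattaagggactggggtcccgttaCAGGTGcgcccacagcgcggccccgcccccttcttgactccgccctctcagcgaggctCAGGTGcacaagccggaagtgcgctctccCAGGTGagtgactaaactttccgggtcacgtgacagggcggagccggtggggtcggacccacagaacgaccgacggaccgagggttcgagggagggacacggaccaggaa
CLDN7 chr17:7262429-7262728 minus strand: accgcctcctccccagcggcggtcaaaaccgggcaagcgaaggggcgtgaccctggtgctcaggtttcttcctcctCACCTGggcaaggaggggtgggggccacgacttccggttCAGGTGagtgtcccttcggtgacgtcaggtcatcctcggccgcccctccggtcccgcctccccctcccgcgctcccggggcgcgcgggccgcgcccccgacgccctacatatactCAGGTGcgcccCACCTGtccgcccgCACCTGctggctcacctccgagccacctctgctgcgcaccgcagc
The VIM window held no match, which says only that these letters are not in it, and ZEB1 held 3 at this 1 of its 7 listed starts. CRB3, a polarity gene, and CLDN7 held 5 each, CLDN7 at 1 of its 2 starts. With the same number of matches, CRB3 fell by 0.38 and CLDN7 rose by 4.0 in HepG2S1 with sorafenib against HepG2. A match is a description of the sequence, and binding was not measured.

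Over the 13 arrays the genes whose log2 values followed VIM most closely were CDCA7L, SRI and PLEKHA2 (Pearson r 0.99986, 0.99966 and 0.99960 among 18354 genes), all set by the difference between HepG2 and HepG2S1, where they were higher by 4.41, 6.71 and 2.53. Over the 10 HepG2S1 arrays, among 5042 genes that varied between those groups by the F test, PRKCSH, PLD3 and FGFRL1 followed TWIST1 (r 0.989, 0.989 and 0.984). KIAA0753, DDX41 and KAT2B followed ZEB2 (r 0.982, 0.968 and 0.965), and TP53I3, PPIF and PANX1 followed ESRP2 (r 0.980, 0.971 and 0.969). The points share arrays and the 3 group means, and the genes with the highest r were picked from many, so that these values are descriptions.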

How the data were processed

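The deposited table holds log2 values of 13 arrays. RMA is the method that the submitters' processing notes name, its version and the annotation used being not given in the sources used here. Of 28926 rows, 19310 came with 1 gene symbol, 1752 with several and 7864 with none. Entrez IDs brought the symbols of 19279 rows up to date, and 685 genes with several rows were each represented by their highest row on average, leaving 18377 genes. Arrays were grouped by the labels and are named by the numbers in their titles. Their number limits the precision.

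limma 3.58.1 under R 4.3.3 fitted the 4 group means (lmFit, eBayes) with Benjamini-Hochberg adjustment over all genes within each comparison. Differences are the first group minus the second, with 95% confidence intervals from the same fit, and a fold is computed from the log2 difference. The fit was tested on simulated data. The rule for named genes took the 10 genes, CDH1, CDH2, the called gene with the largest rise and fall of each of 8 lists in 3 comparisons, and the most similar genes by Pearson correlation. Genes named beyond it, to spell out small counts or among the markers, were picked for naming after their values were seen. The genes and lists were chosen with earlier results of these data known.

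Alternatives were eBayes with trend and robust set, a fit of only the groups compared, leaving out genes under the 33rd percentile, scaling to the 75th percentile, a repeat of quantile normalization, array weights, averaging a gene's rows, a threshold of 0.01, and each array left out in turn. Looking at the other ZEB2 row was chosen after seeing the data. Sequences came from RefSeq tables of GRCh38.p14, and matplotlib 3.10.9 (Python 3.11.15) drew the figures.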

Additional observations from a re-analysis of the deposited data

Results flagged for a closer look

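Of 40 genes screened in the 4 arrays of HepG2S1 with sorafenib at 20% O2, 4 had 1 array apart from the other 3, by the gap to the nearest array over the group's range against Dixon's critical value, which chance passes in about 1 in 20 groups. KRT5 was highest in 1 array, at 7.97 with the nearest at 7.89 (gap share 0.906), and LOXL2 at 10.29 with the nearest at 10.13 (0.870). SMAD7 was lowest in 1 array, at 8.11 with the nearest at 8.21 (0.954). ZEB2 was lowest in 1 array, at 7.67 with the nearest at 7.69 (0.973), a gap within a range of 0.02 log2 units.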

How the results depend on the processing

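The counts of the 10 genes passing against HepG2, between 2% O2 and withdrawal and in the F test stayed within 1.5 times under every alternative run. After withdrawal the count of 2 became 1 at an adjusted p of 0.01 and ranged from 1 to 2 when single arrays were left out. It became 3 with only the compared groups fitted, with array weights and with the mean over rows of a gene. At 2% O2 against 20% O2 the count of 2 became 1 with the mean over rows of a gene and 0 at 0.01, and ranged from 0 to 3 when single arrays were left out, with OVOL1 as the third gene without HepG2 array 2 or 3 or 2% O2 array 18 (2 genes at an unadjusted p under 0.05 in limma without 2% O2 array 17). With only the compared groups fitted and with array weights this count was 3. Differences that changed sign were all ones that had not passed. With 75th percentile scaling GRHL2 was at -0.015 after withdrawal and -0.073 at 2% O2 against HepG2, TWIST1 at -0.0072 at 2% against 20% O2 and SNAI1 at -0.014 at 2% O2 against withdrawal. With repeated quantile normalization, at 2% against 20% O2, TWIST1 was at -0.0010, GRHL2 at 0.0073 and OVOL2 at 0.0012, and OVOL2 at 0.015 against withdrawal. With array weights GRHL2 was at -0.057 at 2% O2 against HepG2. With the mean over rows ZEB2 was at -0.13 at 2% O2 against withdrawal.

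When single arrays were left out, GRHL2 ranged from -0.022 to 0.20 with sorafenib against HepG2, -0.10 to 0.016 at 2% against 20% O2, -0.079 to 0.14 at 2% O2 against HepG2, -0.11 to 0.0098 at 2% O2 against withdrawal, -0.038 to 0.050 after withdrawal and -0.015 to 0.21 after withdrawal against HepG2. OVOL1 ranged from -0.032 to 0.14 with sorafenib against HepG2, OVOL2 from -0.10 to 0.061 at 2% O2 against withdrawal and -0.13 to 0.024 after withdrawal, SNAI1 from -0.0088 to 0.048 at 2% O2 against withdrawal, and ZEB1 from -0.070 to 0.011 at 2% against 20% O2. The cause was not tested. GRHL2, OVOL1 and OVOL2 fell below the filter at the 33rd percentile and have no value there. The 75th percentile scaling moved the median of all genes at 2% O2 against HepG2 from -0.05 to -0.13. Counts of the smaller lists within HepG2S1 moved by over 1.5 times, those of the mesenchymal genes after withdrawal between 3 and 13 and those of the TGF-beta genes between 1 and 7. No paired analysis was possible because the titles give no replicate number shared between groups.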
